A study of Mus musculus with 40 samples.

Results

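The comparison is between inner cell mass (ICM) and trophectoderm (TE) cells of E3.5 mouse blastocysts, over autosomal genes. Its members are 17 of the 40 single cells of the study, taken by the stage in the cell name and the class that the study lists for each cell. They comprise 14 ICM cells from 7 embryos and 3 TE cells from 3 embryos, and embryo 4 gave a cell of each class. All cells were female and came from uncultured embryos of naturally mated C57BL/6J mothers and CAST/EiJ fathers, with no treatment or transgene in either class. The study sorted its cells into lineages with a panel of pluripotency and differentiation factors, so differences in such factors are not independent of the class.

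The libraries of all 3 TE cells dated from previous work of the authors, called the earlier study here, as did those of 3 ICM cells, 1 each of embryos 4, 8 and 12. The other 11 ICM cells were new, and some of them also came from embryos 8 and 12. The study isolated its ICMs by immunosurgery, which kills the outer cells with antibody and complement before the ICM is dissociated. Class and study of origin can therefore not be told apart in full, and handling before lysis may have differed between them.

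The blastocyst is a hollow ball whose outer layer, the TE, is a polarised epithelium that pumps fluid into the cavity and later builds the placenta. The ICM is the cluster of cells inside it, whose descendants form the epiblast, the source of the fetus, and the primitive endoderm. In outer cells, polarity keeps the Hippo pathway low, YAP enters the nucleus and TEAD4 switches on Cdx2, while inner cells retain the pluripotency factors and use FGF4 to signal among themselves.

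Polyadenylated RNA of each cell was copied from its 3′ end, amplified by PCR and sequenced, and reads were counted per gene. Totals per cell were 2671531 to 12833051 counts in ICM cells and 5462656 to 8097555 in TE cells. The number of genes with a count was 8524 to 11757 in ICM cells and 8728 to 10132 in TE cells. Because cells of an embryo are not independent, their counts were added up within each class, which gave 7 ICM and 3 TE sums. An ICM sum held 1 to 3 cells and each TE sum 1 cell. Levels of a gene are given as CPM, the share of a library after TMM scaling, in these sums, and as RPRT in single cells, the authors' value per retrotranscribed length and depth. The TE cell of embryo 5 stood apart with a TMM factor of 0.588, against 0.896 to 0.902 in the other TE cells and 0.959 to 1.24 in ICM sums.

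Of 12167 autosomal genes tested, 254 (2.09%) were called higher and 257 (2.11%) lower in the ICM at an adjusted p under 0.05 (edgeR). All 7 ICM sums were above all 3 TE sums in 612 genes (5.03%) and below them in 291 (2.39%). Among the called genes this held for 210 of those higher and 136 of those lower. Counts of called members in the gene lists below are to be read against the 2.09% and 2.11% called over all genes. No list was tested against these shares. The median log2 fold change of ICM over TE across all autosomal genes was 0.68 after TMM scaling, 1.08 with library size alone and 0.15 with the size factors of DESeq2. Fold changes are to be read against this median, and the balance of the calls moved with the scaling. It was 276 higher and 73 lower with library size alone, and 247 higher and 1427 lower with DESeq2 size factors. Each of the 10 sums was also left out in turn, and a sum whose omission ends a call is named by class and embryo (TE 5, ICM 10). Many calls did not outlast this.

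**Figure D1:**
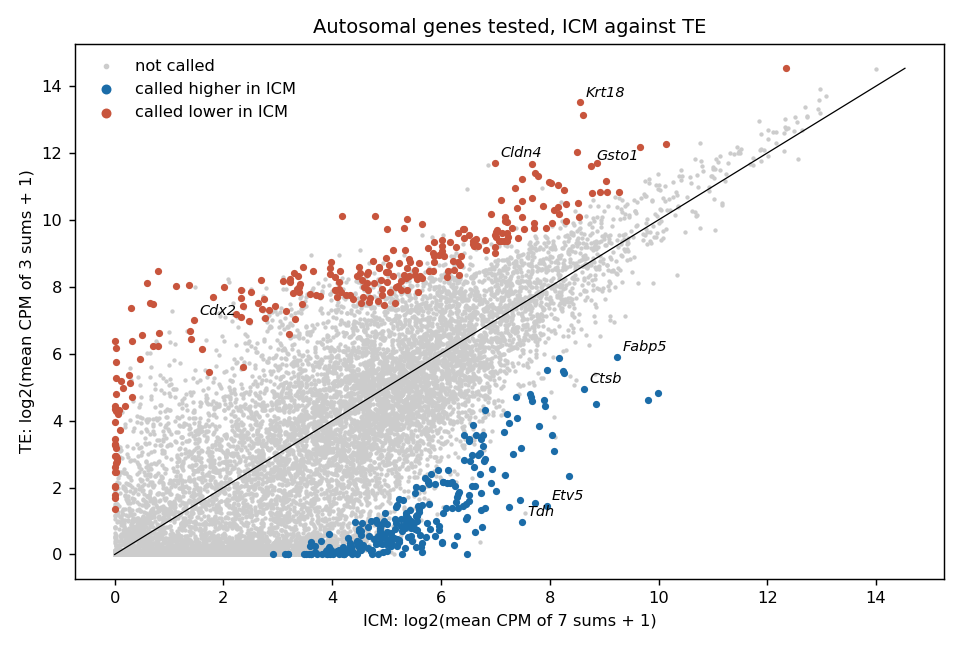
Mean CPM of the 3 TE sums (vertical) against that of the 7 ICM sums (horizontal) for the 12167 autosomal genes tested, both as log2(CPM + 1). Blue points are the 254 genes called higher in ICM, red points the 257 called lower, and the line marks equal levels.

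The 3 TE markers and both ICM markers given for the classes separated them. Cdx2 (GRCm38 chr5:147300900-147307249, minus strand) encodes the homeodomain factor that specifies the TE. It had 0.00 (lowest), 0.465 (median) and 7.63 (highest) CPM in ICM sums, against 84.5, 52.1 and 244 CPM in the TE sums of embryos 2, 4 and 5 (log2 fold change -6.18 ± 1.42 (SE), adjusted p = 0.025). The groups did not overlap, and the highest ICM sum was that of embryo 12.

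Krt8 and Krt18 encode the paired keratins of simple epithelia and lie side by side on chromosome 15 (101996711 to 102004342 and 102028216 to 102032026). Krt8 had 17.6, 81.1 and 1253 CPM (lowest, median and highest) in ICM sums, against 7113, 8853 and 10974 CPM in TE sums (log2 fold change -4.53 ± 0.98, adjusted p = 0.021). Krt18 had 0.605, 15.2 and 1118 CPM in ICM sums, against 7570, 13414 and 14362 CPM in TE sums (-4.96 ± 1.31, adjusted p = 0.040). Every TE sum exceeded every ICM sum for both keratins. Without the TE cell of embryo 5, the adjusted p was 0.12 for Cdx2, 0.058 for Krt8 and 0.12 for Krt18, with log2 fold changes of -5.32, -4.38 and -4.80. The calls of Cdx2 and Krt8 were lost in that omission alone, and that of Krt18 also without ICM 8, ICM 10, ICM 13 or TE 4.

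Tdh, on chromosome 14 (63492347 to 63509092), encodes threonine dehydrogenase, which feeds the one-carbon metabolism of mouse pluripotent cells. It had 9.11, 141 and 520 CPM in ICM sums, against 0.00, 0.548 and 2.39 CPM in TE sums, from 0, 4 and 8 counts (log2 fold change 7.61 ± 1.53, adjusted p = 0.014). Etv5, on chromosome 16 (22381313 to 22439570), encodes an ETS factor induced by FGF and ERK signalling. It had 47.4, 212 and 547 CPM in ICM sums, against 0.204, 0.274 and 4.78 CPM in TE sums (7.21 ± 1.21, adjusted p = 0.0053). All ICM sums were above all TE sums for both genes, and both calls held when any of the 10 sums was left out.

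**Figure D2:**
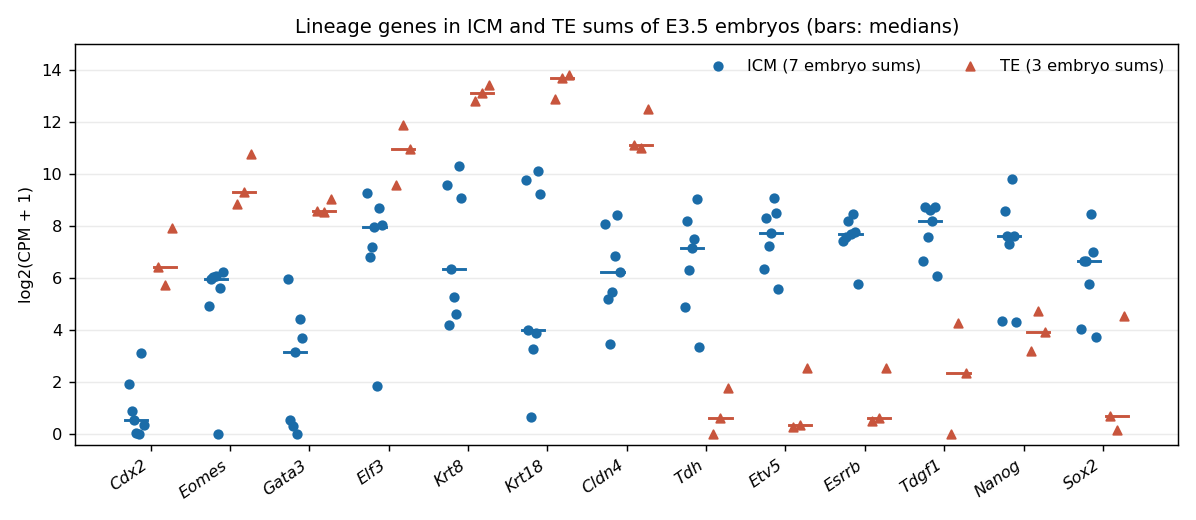
log2(CPM + 1) of 13 lineage genes in 7 ICM sums (blue circles) and 3 TE sums (red triangles) of E3.5 embryos, with bars at the medians. Cdx2, Eomes, Gata3, Elf3, Krt8, Krt18 and Cldn4 lie lower in every ICM sum than in any TE sum, and Tdh, Etv5, Esrrb and Tdgf1 lie higher, while Nanog and Sox2 overlap.

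Of 18 tested transcription factors of the TE list, 4 were called lower in the ICM, 0 higher and 14 neither, with a median log2 fold change of -2.73. DESeq2 called 6 lower and 1 higher, and 5 of the 18 lay above the median of all genes. The 4 called by edgeR were Cdx2, Eomes, Gata3 and Elf3, and in none of them did ICM and TE sums overlap. Eomes, a T-box factor needed for trophoblast development, had 0.00, 61.9 and 74.6 CPM in ICM sums, against 458, 628 and 1751 CPM in TE sums (log2 fold change -4.26 ± 0.98, adjusted p = 0.025). Gata3, a zinc finger factor that acts beside Cdx2, had 0.00, 7.88 and 61.7 CPM in ICM sums, against 380, 369 and 528 CPM in TE sums (-4.86 ± 1.32, adjusted p = 0.045). Elf3, an epithelial ETS factor, reached 613 CPM in an ICM sum, against 770 CPM in the lowest TE sum, the smallest gap of the 4 (-3.08 ± 0.78, adjusted p = 0.035). Leaving out the TE cell of embryo 5 ended the calls of all 4 factors, with adjusted p of 0.12 for Cdx2 and Gata3, 0.11 for Eomes and 0.082 for Elf3. Gata3 was also lost without ICM 8, 9, 10, 12 or 13, and Elf3 without ICM 8, 9, 10, 13 or TE 4, so these 2 calls did not depend on embryo 5 alone.

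In the list of keratins, desmosome and cortex, 4 of 18 tested genes were called lower and 0 higher (median log2 fold change -2.53). DESeq2 called 11 lower and 1 higher, and in 1 of the 18 every ICM sum was above every TE sum. Beside both keratins, edgeR called Actn4, an actin crosslinker, and Ppl, a plakin of the cornified envelope and desmosomes. Actn4 had 131, 177 and 282 CPM in ICM sums, against 1270, 733 and 2838 CPM in TE sums, without overlap (-2.99 ± 0.44, adjusted p = 0.0033), and its call held when any sum was left out. Ppl rested on the TE cell of embryo 4 with 124 counts, since the other TE cells had 2 each and ICM sums 0 to 7. Ppl could be fitted in 9 omissions, all but that of TE 4, and its call held in 2.

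In the list of tight junction, polarity and blastocoel transport, 5 of 18 tested genes were called lower in the ICM and 0 higher (median -2.20). Without TE 4, edgeR called 6 lower and 1 higher. Cldn4, a claudin of the tight junction that seals the TE, had 10.2, 75 and 344 CPM in ICM sums, against 2207, 2054 and 5776 CPM in TE sums (-4.72 ± 0.79, adjusted p = 0.0053). Cldn7, another claudin, had 2.14, 54.6 and 160 CPM in ICM sums, against 758, 370 and 332 CPM in TE sums (-3.07 ± 0.86, adjusted p = 0.048). Neither claudin overlapped between the classes. The call of Cldn4 held in all 10 omissions and that of Cldn7 in 3 (lost without ICM 4, 8, 9, 10, 13, TE 2 or TE 5). F11r, the adhesion molecule JAM-A, had 89.2, 116 and 226 CPM in ICM sums, against 960, 202 and 1201 CPM in TE sums (-2.63 ± 0.51, adjusted p = 0.013). The TE cell of embryo 4 lay within the ICM range of F11r, and the other TE cells lay above it.

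TEAD factors act on the TE programme through a short DNA core, so the promoters of the called genes of these 3 lists were searched for it. The window ran from 250 bases before to 50 after each gene start of RefSeq (GRCm38.p6), and the letters were GGAATG on either strand, the single motif searched. Of 13 genes called lower, 10 had a promoter and 3 of these held the motif (30%), against 14.4% of 9289 autosomal genes tested that had a promoter. The 3 of 10 were not tested against this share. Over all calls the share was 13.1% of 198 genes higher in the ICM and 13.9% of 201 genes lower. The 3 matches are printed 5′ to 3′ on the gene's strand, with the motif or its complement in capitals. Of these genes, Actn4 was called in all 10 omissions, Elf3 in 4 and Cldn7 in 3.
Elf3, chr1:135258690-135258719, minus strand: cccagagggtgcGGAATGacagattctgac
Actn4, chr7:28962531-28962560, minus strand: tgaatgggaacaCATTCCaccccgaaacag
Cldn7, chr11:69964697-69964726, plus strand: aacctggggaggGGAATGttgggcgtgtcg
A match is a run of letters, and binding was not measured.

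Of 29 tested genes of pluripotency and the epiblast, 5 were called higher, 0 lower and 24 neither, and 20 of the 29 lay above the median of all genes (median log2 fold change 2.14). DESeq2 called 11 of them higher and 4 lower, and DESeq2 size factors in edgeR 4 higher and 2 lower. The list's summed level was 7315 to 12720 CPM in ICM sums, against 5844, 9286 and 8983 CPM in TE sums, and so overlapped. Esrrb, an orphan nuclear receptor of the pluripotency network, had 54.5, 206 and 351 CPM in ICM sums, against 0.409, 0.548 and 4.78 CPM in TE sums (6.85 ± 1.03, adjusted p = 0.0036). Tdgf1, the Nodal coreceptor Cripto, had 66.2, 292 and 431 CPM in ICM sums, against 0.00, 18.2 and 4.19 CPM in TE sums (5.16 ± 1.29, adjusted p = 0.034). Neither gene overlapped between the classes. Esrrb was called in all 10 omissions, and Tdgf1 was lost without ICM 8, ICM 10 or TE 5.

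Bmp4, a TGF-β family ligand, was called higher as well (6.10 ± 1.59, adjusted p = 0.039), and so was Pecam1, a cell adhesion molecule, with 1 count in the 3 TE cells and a median of 21.6 CPM in ICM sums (adjusted p = 0.037). The lowest ICM sum lay within the TE range in each. Fgf4, the ligand by which epiblast precursors signal to their neighbours, had no count in any TE cell and 0.00, 35.7 and 342 CPM in ICM sums. Its median ICM sum was at least 39.8-fold higher than 3 counts in a TE library (adjusted p = 0.043), but the ICM cell of embryo 4 had none either, and the sums of embryos 9 and 13 had 0.465 and 0.098 CPM. Nanog had 19, 197 and 904 CPM in ICM sums, against 8.18, 25.8 and 14.4 CPM in TE sums, and did not pass the test (4.06 ± 1.18, adjusted p = 0.054). Sox2 had 12.4, 100 and 356 CPM in ICM sums, against 0.613, 0.137 and 22.1 CPM in TE sums (3.87 ± 1.41, adjusted p = 0.11). Bmp4 and Fgf4 were called in 4 of 10 omissions each and Pecam1 in 5, all of them being lost without ICM 8, ICM 10, TE 2 or TE 5. Further omissions that ended a call were ICM 9 for Bmp4 and Pecam1, ICM 12 for Fgf4, and TE 4 for Bmp4 and Fgf4.

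Primitive endoderm genes had a median log2 fold change of 3.43 (2.75 relative to that of all genes). Of 21 tested, 3 were called higher in the ICM and 0 lower, while limma-voom without a block called 1 higher and 1 lower. The list's summed level was 420 to 10786 CPM in ICM sums, against 951, 1184 and 1414 CPM in TE sums, and so overlapped. Aqp8, a water channel, had 54.1, 363 and 1034 CPM in ICM sums, against 0.818, 38.7 and 25.7 CPM in TE sums (4.40 ± 1.16, adjusted p = 0.040). Sparc, a matrix glycoprotein of endoderm, ranged over 37.6, 535 and 4127 CPM in ICM sums, against 0.204, 42.9 and 38.3 CPM in TE sums, with the ICM sum of embryo 11 inside the TE range (5.22 ± 1.46, adjusted p = 0.048). Hnf4a, a nuclear receptor of endoderm, had 1.95, 17 and 66.4 CPM in ICM sums, against 0.00, 0.137 and 0.00 CPM in TE sums, where it had 1 count in all (adjusted p = 0.042). The defining endoderm factors did not pass the test. Gata4 had 0.00, 75.7 and 259 CPM in ICM sums, against 0.00, 24.4 and 2.09 CPM in TE sums (adjusted p = 0.19), and adjusted p was 0.11 for Pdgfra and 0.57 for Sox17. The calls of Aqp8, Hnf4a and Sparc were unstable. Of 10 omissions, Aqp8 was called in 4 (lost without ICM 4, 9, 10, 13, TE 2 or TE 5). Hnf4a was called in 3 (lost without ICM 8, 9, 10, 12 or any TE cell) and Sparc in 1, that of ICM 11. The list had 0 calls by edgeR without ICM 9, ICM 10, TE 2 or TE 5, with the E3.5 sums alone and with the first cell of each ICM embryo.

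In the FGF and ERK list, Etv5 was the single call among 20 tested genes (1 higher, 0 lower), against 2.09% of all autosomal genes called higher. The list's median of 4.28 (3.60 relative to that of all genes) fell to 2.57 when genes without a count in TE cells were held at their lower bound. In limma-voom the relative median was 1.52 without a block and 1.44 with embryo as a block. The list's summed level was 504, 668 and 2069 CPM (lowest, median and highest) in ICM sums. It overlapped with the 1094, 688 and 496 CPM in TE sums. In the Hippo list, 2 of 17 tested genes were called higher and 0 lower (median 1.69, which is 1.01 relative to that of all genes and -0.20 in limma-voom with embryo as a block). Stk3, the kinase MST2 at the head of the pathway, had 2.35, 18 and 26.4 CPM in ICM sums and no count in any TE cell, so that its median was at least 20.1-fold higher than 3 counts in a TE library (adjusted p = 0.019). Ajuba, a LIM protein that restrains the LATS kinases, had 9.80, 20.9 and 43.0 CPM in ICM sums, against 0.613, 0.685 and 1.5 CPM in TE sums (4.62 ± 0.98, adjusted p = 0.019). The ranges of neither gene overlapped.

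**Figure D3:**
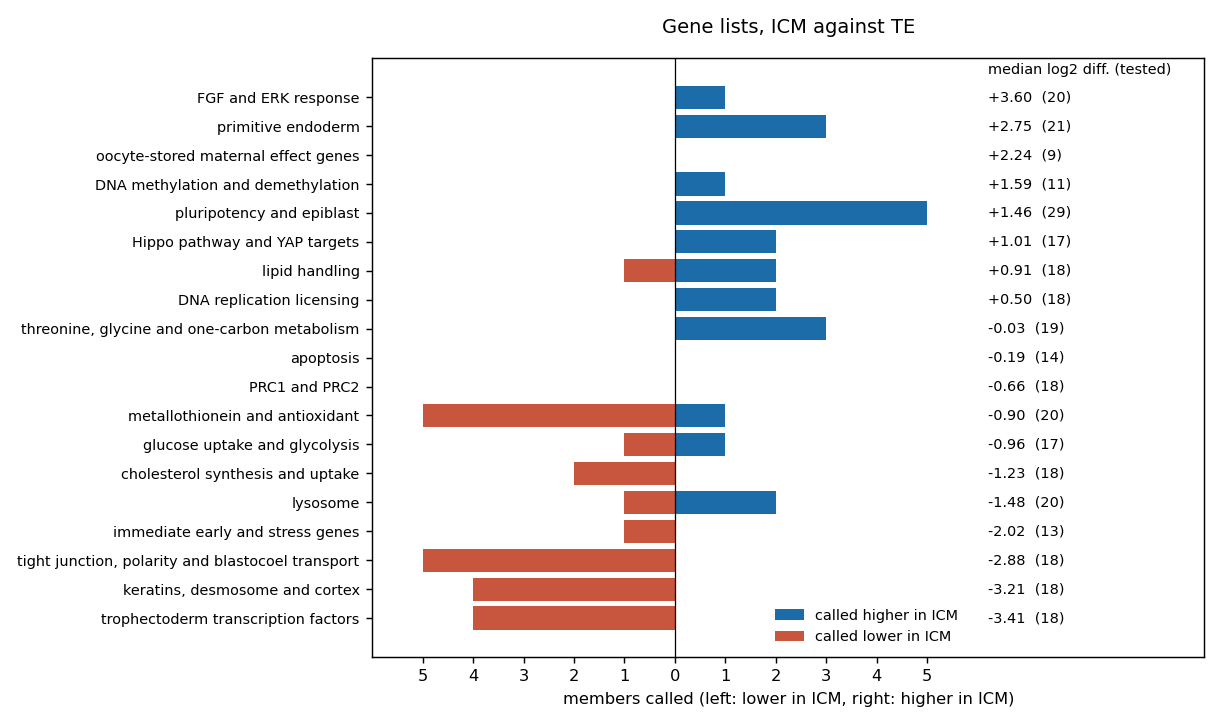
Number of genes called higher (blue, right) and lower (red, left) in ICM for 19 gene lists, ordered by the list's median log2 fold change minus that of all autosomal genes, which is printed with the number tested. The 3 lists of TE factors, keratins and junctions had calls on the lower side alone, at -3.41 to -2.88, and the list of pluripotency had 5 calls on the higher side.

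Of 17 tested genes of glucose uptake and glycolysis, 1 was called higher in the ICM, 1 lower and 15 neither. Over all autosomal genes 2.09% were called higher and 2.11% lower, so single calls say little about a list. Tpi1, the triose phosphate isomerase of glycolysis, had 70.9, 138 and 372 CPM in ICM sums, against 1933, 1607 and 2348 CPM in TE sums (-3.59 ± 0.52, adjusted p = 0.0033), without overlap. Ldha, which turns pyruvate into lactate, had 0.877, 128 and 291 CPM in ICM sums, against 0.204, 6.58 and 5.68 CPM in TE sums (5.11 ± 1.38, adjusted p = 0.044), with the ICM sum of embryo 11 inside the TE range. Tpi1 was called in all 10 omissions, and Ldha in the 2 that left out ICM 10 or ICM 11 (adjusted p up to 0.14).

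In the list of threonine, glycine and one-carbon metabolism, 3 of 19 tested genes were called higher and 0 lower, while the list's median of 0.65 was that of genes at large. Beside Tdh they were Ahcy, which removes the by-product of methylation reactions, and Mthfd1l, which releases formate from mitochondria. Ahcy had 116, 316 and 505 CPM in ICM sums, against 67.7, 56.2 and 7.18 CPM in TE sums (2.78 ± 0.76, adjusted p = 0.045). Mthfd1l had 0.323, 23.3 and 45.3 CPM in ICM sums, against 0.204, 0.00 and 0.598 CPM in TE sums, from 1, 0 and 2 counts (adjusted p = 0.047). Mthfd1l overlapped between the classes and Ahcy did not. Ahcy was called in 3 of 10 omissions (lost without ICM 8, 9, 10, 11, 12, TE 4 or TE 5) and Mthfd1l in 2 (lost without ICM 8, 9, 10, 11, 13 or any TE cell). Without ICM 8, 9, 10 or 11 the list had 1 call.

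Of 18 tested lipid genes, 2 were called higher in the ICM, 1 lower and 15 neither. Fabp3 and Fabp5 encode related carriers of fatty acids and lay on opposite sides. Fabp3 had 23.2, 71.6 and 509 CPM in ICM sums, against 2499, 2721 and 4645 CPM in TE sums (-4.02 ± 0.67, adjusted p = 0.0053). Fabp5 had 373, 559 and 987 CPM in ICM sums, against 25.2, 112 and 40.7 CPM in TE sums (3.35 ± 0.76, adjusted p = 0.024). Neither overlapped, and per retrotranscribed length the median of Fabp5 in ICM cells was 616 RPRT beside 123 RPRT for Fabp3. Scd2, a desaturase that makes monounsaturated fatty acids, had 83.3, 265 and 372 CPM in ICM sums, against 2.04, 29.1 and 8.67 CPM in TE sums (4.06 ± 0.87, adjusted p = 0.020). Of 18 tested cholesterol genes, 2 were called lower and 0 higher, against 2.11% of all autosomal genes called lower. Mvd, an enzyme of the mevalonate pathway, had 0.00, 12.5 and 22.2 CPM in ICM sums, against 47.6, 24.7 and 562 CPM in TE sums (-4.06 ± 1.04, adjusted p = 0.037). The TE cell of embryo 5 set the size of this difference, and without it Mvd was not called (-1.53, adjusted p = 0.43). Mvd was also lost without ICM 4, 8, 9, 10 or 12, and Fabp5 and Scd2 without TE 5 (adjusted p = 0.082 and 0.065).

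**Figure D4:**
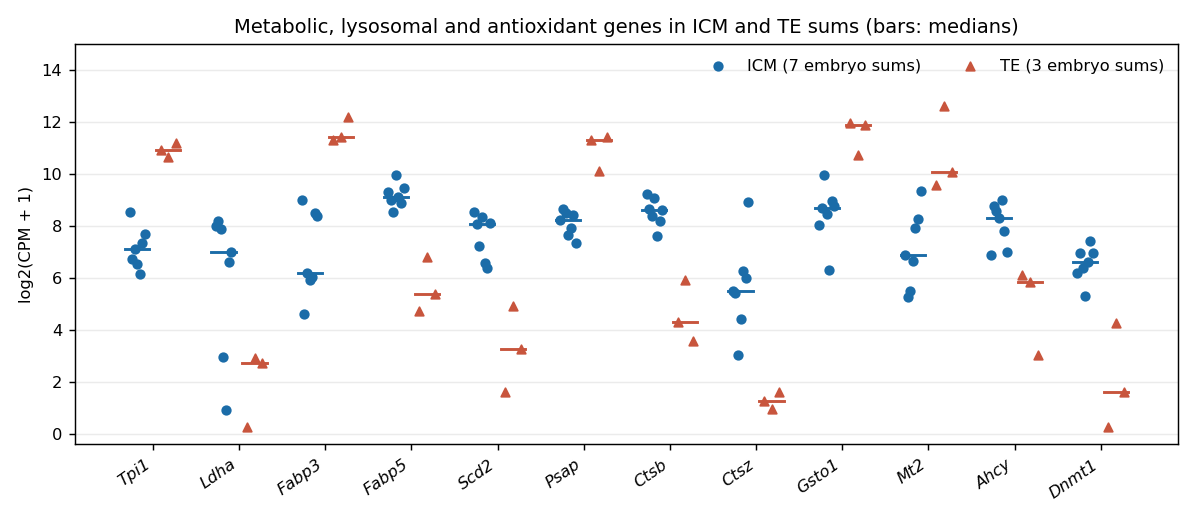
log2(CPM + 1) of 12 metabolic, lysosomal, antioxidant and methylation genes in 7 ICM sums (blue circles) and 3 TE sums (red triangles), with bars at the medians. Tpi1, Fabp3, Psap, Gsto1 and Mt2 lie lower in ICM sums, the others higher, and Ldha alone overlaps between the classes.

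In the lysosome list, 2 of 20 tested genes were called higher and 1 lower, against 2.09% and 2.11% of all autosomal genes. Ctsb and Ctsz, which encode cathepsin proteases, were the higher ones. Ctsb had 197, 391 and 601 CPM in ICM sums, against 19, 60.3 and 10.8 CPM in TE sums (3.71 ± 0.67, adjusted p = 0.0090), and Ctsz had 7.26, 44.0 and 485 CPM, against 1.43, 0.959 and 2.09 CPM in TE sums (6.16 ± 1.46, adjusted p = 0.027). Psap, the precursor of the saposins that help to degrade sphingolipids, had 162, 297 and 398 CPM in ICM sums, against 2554, 1106 and 2712 CPM in TE sums (-2.90 ± 0.49, adjusted p = 0.0053). None of the 3 overlapped between the classes. Ctsz was not called without any one of the TE cells, while Ctsb and Psap were called in all 10 omissions.

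Of 20 tested metallothionein and antioxidant genes, 5 were called lower in the ICM and 1 higher. Gsto1, a glutathione transferase of the omega class, had 78.2, 417 and 994 CPM in ICM sums, against 3964, 1689 and 3805 CPM in TE sums (-2.87 ± 0.54, adjusted p = 0.011). Mt2, a metallothionein that binds zinc, had 37.5, 116 and 646 CPM in ICM sums, against 757, 6206 and 1070 CPM in TE sums (-3.66 ± 0.80, adjusted p = 0.022). Its neighbour Mt1 (-3.50), the glutathione transferase Gsta4 (-2.24) and the peroxiredoxin Prdx5 (-2.05) were the other genes called lower. The TE cell of embryo 4 set the size of both metallothionein differences: without it the log2 fold changes were -1.57 for Mt1 and -2.11 for Mt2 (adjusted p = 0.24 and 0.13). Txnrd1, the cytosolic thioredoxin reductase, was called higher (4.47 ± 1.20, adjusted p = 0.043). Of 10 omissions, Gsta4 was called in 7 (lost without ICM 8, ICM 10 or TE 5), Txnrd1 in 3 (lost without ICM 8, 9, 10, 11, 12, TE 4 or TE 5) and Prdx5 in the 2 that left out TE 2 or TE 4.

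The list of immediate early and stress genes had 1 call among 13 tested genes. Fos, an early response factor that handling of cells can induce, had 0.00, 8.23 and 55.0 CPM in ICM sums, against 27.8, 1642 and 1643 CPM in TE sums (-6.02 ± 1.52, adjusted p = 0.037), the TE cell of embryo 2 lying within the ICM range. The call was lost without ICM 8, ICM 10, ICM 13 or TE 5. Jun, its partner, had 227 CPM in the TE cell of embryo 4 but 0.409 and 3.89 CPM in the other TE cells, with 0.00 to 5.29 CPM in ICM sums, and was not called (adjusted p = 0.055). The list's summed level was 3575 to 10375 CPM in ICM sums, against 10763 to 13327 CPM in TE sums. In E4.0 sums it was 5729 to 8934 CPM for primitive endoderm and 12011 to 14622 CPM for epiblast. The part of these genes in the other differences was not tested.

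Dnmt1, the maintenance DNA methyltransferase, was the single call among 11 genes of DNA methylation and demethylation (2.09% of all autosomal genes were called higher). Dnmt1 had 38.9, 97.7 and 169 CPM in ICM sums, against 0.204, 18.4 and 2.09 CPM in TE sums (3.86 ± 1.02, adjusted p = 0.040), without overlap. Uhrf1, which guides Dnmt1 to replicated DNA, had 121, 170 and 298 CPM in ICM sums, against 31.9, 51.0 and 61.9 CPM in TE sums (adjusted p = 0.065). None of 18 Polycomb genes was called by edgeR with all sums and TMM scaling, and 4 of them had an unadjusted p under 0.05. Other edgeR fits called 3 lower with DESeq2 size factors, 1 lower without TE 2 and 2 higher without TE 4. In this list DESeq2 called 2 higher and 2 lower. Ezh2, the H3K27 methyltransferase, and Eed, its partner, had adjusted p of 0.078 and 0.084. Of 18 replication licensing genes, Orc1, of the origin recognition complex, and Mcm3, of the replicative helicase, were called higher (5.94 ± 1.42 and 3.15 ± 0.89, adjusted p = 0.029 and 0.049) and 0 lower. Dnmt1 was called in 4 of 10 omissions (lost without ICM 8, 9, 10, 12, 13 or TE 5) and not with the E3.5 sums alone. Mcm3 was called in the 2 that left out ICM 13 or TE 4, and Orc1 in all 10.

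RNA of other cells was checked by its markers. Of 10 blood and immune genes, 1 (Cd68) had enough counts to be tested and was not called, and their summed level was 0.00 to 8.83 CPM in ICM sums, against 0.00 to 8.22 CPM in TE sums. With all sums and TMM scaling, the oocyte list had 0 calls by edgeR among 9 tested genes (2 with an unadjusted p under 0.05). Its summed levels were 100 to 288 CPM in ICM sums and 86.5, 92.8 and 501 CPM in TE sums. Of 14 tested apoptosis genes, 0 were called by that fit, and 3 had an unadjusted p under 0.05. With DESeq2 size factors in edgeR, each of these 2 lists had 1 gene called lower.

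Of 1767 tested genes with no count in any TE cell, 25 were called higher in the ICM. This is a lower share than the 2.09% over all 12167 autosomal genes tested. The genes without a count in TE cells passed the filter on low counts through other sums, and their fitted folds have no lower group to rest on. The genes named here were taken by that fitted fold, which does not show that they differed more than Tdh, Etv5 or Esrrb. A level of 3 counts corresponds to 0.411 to 0.897 CPM in the TE libraries, and folds against it are lower bounds that cover counting error only. The genes named were Stk3, Cstf2t, Dtnbp1, Nt5c3, Exoc2, Zfp59, Apobec3, Zfp654, Ttc39c, Fanci and H2-Eb1. Cstf2t, a 3′ end processing factor, had 8.23, 18.7 and 33.4 CPM in ICM sums, at least 20.9-fold higher at the median, and was above 1 RPRT in all 14 ICM cells. Dtnbp1, a subunit of the BLOC-1 trafficking complex, was at least 22.5-fold higher at the median, and Apobec3, a cytidine deaminase that restricts retroviruses, at least 14.6-fold. The bounds of the others named lay between 7.72-fold (H2-Eb1) and 21.2-fold (Nt5c3). The lowest ICM sums were 0.588 CPM for Dtnbp1, 0.47 for Apobec3, 0.823 for Fanci and 0.35 for Nt5c3. For Zfp654, H2-Eb1 and Ttc39c they were 0.196, 0.195 and 0.093 CPM. None of these exceeded 0.897 CPM, so there the lack of overlap cannot be told from the limit of detection. The lowest ICM sums of Stk3, Cstf2t, Exoc2 and Zfp59 did exceed it. A cell holds few copies of such RNAs and each TE sum is a single cell, so a count of 0 limits the level in that cell and not in the lineage. Stk3 and Cstf2t were called in all 10 omissions, and Dtnbp1, Apobec3 and Exoc2 were lost without TE 5 alone. Zfp59 was called in 7 omissions, Nt5c3 in 4, Fanci in 3, H2-Eb1 in 2, and Ttc39c and Zfp654 in 1 each.

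With gene models and pseudogenes left out, the 12 called genes without overlap that had the largest negative fitted fold changes were as follows. They were Kbtbd13, Mmel1, Epn3, Rin3, Epha10, Npepl1, Fosl2, Ptk6, Kank1, Ppl, Sema3b and Cdx2. Npepl1, an aminopeptidase, had 0.00, 0.00 and 2.84 CPM in ICM sums, against 129, 102 and 836 CPM in TE sums (adjusted p = 0.0053). Rin3, a guanine nucleotide exchange factor for Rab5, had 0.00, 0.00 and 1.62 CPM in ICM sums, against 135, 61.7 and 298 CPM in TE sums (adjusted p = 0.011). Kank1, a cortical adaptor of talin, had 0.00, 0.0465 and 10.7 CPM in ICM sums, against 180, 47.6 and 565 CPM in TE sums (adjusted p = 0.023). Ptk6, a non-receptor tyrosine kinase of epithelia, had 0.00, 0.270 and 4.48 CPM in ICM sums, against 59.5, 23.7 and 702 CPM in TE sums (adjusted p = 0.014). Each of these 4 genes was above 1 RPRT in all 3 TE cells. Others rested on fewer cells: Epn3 had 7, 305 and 3 counts, Fosl2 3, 164 and 4 counts and Kbtbd13 946, 126 and 5 counts in the TE cells of embryos 2, 4 and 5. Npepl1, Rin3 and Kbtbd13 were called in all 10 omissions, and Kank1, Ptk6 and Epha10 were lost without TE 5 alone. Fosl2 was called in 3 of 10 omissions and Sema3b in 2 of 10. Mmel1 had 604, 247 and 2 counts in the TE cells of embryos 2, 4 and 5. It was called in the 8 omissions in which it could be fitted, but could not be fitted without TE 2 or TE 4. Epn3 was called in 8 of 9 and could not be fitted without TE 4. Neither call was therefore tested without the TE cells that held most of its counts.

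Across all autosomal genes, 61 of the 254 called higher and 29 of the 257 called lower stayed called whichever of the 10 sums was left out. Several of the genes below were picked from these after their values were seen. Those lower in the ICM included 6 genes of actins and actin-related proteins, which were no fixed list. Other genes of this kind did not follow them, such as Actr2 (log2 fold change 0.09, adjusted p = 0.95) and Arpc1a (0.49, adjusted p = 0.72), of the Arp2/3 complex, and the actinins Actn1 (2.0, adjusted p = 0.37) and Actn2 (2.47, adjusted p = 0.33). Actg1, cytoplasmic gamma actin, had 2610, 5675 and 6403 CPM in ICM sums, against 20577, 15076 and 35330 CPM in TE sums (-2.19 ± 0.32, adjusted p = 0.0033). Actb, beta actin, had 524, 1021 and 2193 CPM in ICM sums, against 4250, 6015 and 4389 CPM in TE sums (-2.11 ± 0.42, adjusted p = 0.013). Dstn, which severs actin filaments, Arpc4, of the Arp2/3 complex, Myl12b, a myosin light chain, and Tagln2, an actin-binding protein, had log2 fold changes of -2.55, -2.47, -2.21 and -3.52 (adjusted p = 0.0053, 0.014, 0.016 and 0.017). The 6 genes had every ICM sum below every TE sum. Reads of actin genes can be shared with their pseudogenes, and exons of Myl12b overlap those of Myl12a.

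Among those higher in the ICM under every such omission were Fn1, Jam2, Foxh1 and Ptpn11. Fn1, which encodes fibronectin, had 41.9, 354 and 550 CPM in ICM sums, against 0.409, 6.58 and 5.38 CPM in TE sums (6.30 ± 0.99, adjusted p = 0.0036). Jam2, a junctional adhesion molecule related to F11r, had 16.1, 87.8 and 122 CPM in ICM sums, against 0.204, 0.274 and 2.99 CPM in TE sums (6.32 ± 1.29, adjusted p = 0.015). Foxh1, through which Nodal signals reach DNA, had 43.0, 107 and 122 CPM in ICM sums, against 0.204, 0.411 and 8.67 CPM in TE sums (4.95 ± 1.12, adjusted p = 0.024). Ptpn11, the phosphatase SHP2 that passes signals of FGF receptors to ERK, had 64.5, 137 and 262 CPM in ICM sums, against 3.68, 15.6 and 1.79 CPM in TE sums (4.49 ± 0.90, adjusted p = 0.014).

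A further 5 genes lower in the ICM were also chosen after their values were seen. They were Cdx1, a homologue of Cdx2 (-5.97 ± 1.64, adjusted p = 0.048), Wnt7b, a Wnt ligand (-5.27 ± 1.37, adjusted p = 0.039), the nuclear long noncoding RNA Neat1 (-5.40 ± 1.09, adjusted p = 0.014), the galectin Lgals1 (-4.77 ± 1.29, adjusted p = 0.044) and Ndrg1, a gene induced in differentiating epithelia (-4.69 ± 0.89, adjusted p = 0.011). In each of them every ICM sum was below every TE sum. Wnt7b had 0.195, 1.80 and 41.3 CPM in ICM sums, against 563, 172 and 425 CPM in TE sums. Ndrg1 was called in all 10 omissions, Neat1 in all but that of TE 5, Wnt7b in 5 (lost without ICM 4, 8, 9, 10 or TE 5), and Cdx1 and Lgals1 in 3 each. Both of these were lost without ICM 4, 8, 9, 10, 13 or TE 5, Cdx1 also without ICM 11 and Lgals1 without TE 4.

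ICM cells varied among themselves in the genes that separated them from the TE. In single ICM cells Krt8 ranged from 3.59 to 1235 RPRT, against 3522, 4481 and 3621 RPRT in TE cells. The ICM cells of embryos 4, 12 and 13 had 478, 513 to 1235 (3 cells) and 289 RPRT, and those of embryos 8, 9, 10 and 11 had 3.59 to 167 RPRT (9 cells). Krt18 was likewise higher in embryos 4, 12 and 13, with 700, 478 to 1321 and 416 RPRT, than in the other ICM embryos, with 0.608 to 54.5 RPRT. Even so, each ICM cell lay below each TE cell in both keratins.

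Cdx2 was above 1 RPRT in 4 of the 14 ICM cells, up to 27.5 RPRT in a cell of embryo 12, against 58.6, 34.1 and 100 RPRT in TE cells. Gata3 was above 1 RPRT in 7 ICM cells, and Eomes in 13, with a median of 20.3 RPRT. Etv5 was the steadier of the ICM markers, at 15.7 to 208 RPRT in ICM cells, against 0.119, 0.829 and 1.61 RPRT in TE cells. Tdh ran from 2.14 to 1056 RPRT in ICM cells and from 17.3 to 1056 RPRT among the 3 cells of embryo 12. Fgf4 was above 1 RPRT in 10 ICM cells and in 0 TE cells.

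**Figure D5:**
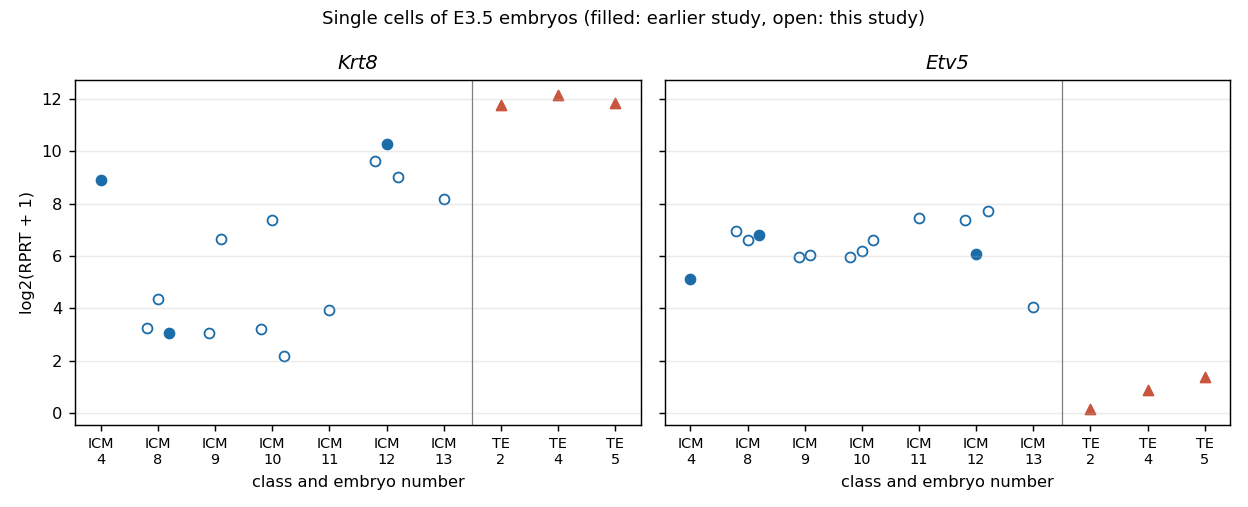
log2(RPRT + 1) of Krt8 (left) and Etv5 (right) in each single cell, by class and embryo number, with ICM cells as circles and TE cells as triangles, filled for the earlier study. Krt8 spans 3.59 to 1235 RPRT in ICM cells and Etv5 15.7 to 208 RPRT, and neither range reaches that of the TE cells.

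Embryo 4 gave an ICM and a TE cell, both of the earlier study, and so shows the difference within 1 embryo and 1 series of libraries. With a single pair there is no test. The ICM cell had 478 RPRT of Krt8, 700 of Krt18, 165 of Cldn4 and 10.3 of Cdx2, and the TE cell had 4481, 8440, 1022 and 34.1 RPRT. The ICM cell had 34.2 RPRT of Etv5, 20.9 of Tdh and 56.8 of Esrrb, and the TE cell had 0.829, 0.585 and 0.488 RPRT. Nanog differed little in this pair, at 12 RPRT in the ICM cell and 11.3 RPRT in the TE cell.

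When the comparison was restricted to the earlier study, with 3 ICM against 3 TE cells, 0 genes were called higher and 8 lower by edgeR, and 802 of 7433 genes had an unadjusted p under 0.05. The 8 genes were Actg1, Blnk, Mt2, Npepl1, Pea15a, Ptk6, Rfx1 and Rin3, of which 5 were among the 257. None of the 5 markers passed there, although their fold changes stayed large, at -4.08 for Cdx2, -3.46 for Krt8, -4.14 for Krt18, 7.11 for Tdh and 6.48 for Etv5 (adjusted p = 0.35, 0.091, 0.057, 0.24 and 0.23). The ICM cells of embryos 4, 8 and 12 in that study had 478, 7.30 and 1235 RPRT of Krt8, and 34.2, 112 and 66.4 RPRT of Etv5.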

How the data were processed

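The authors aligned single-end reads to mm10 (TopHat2 2.1.0) and deposited raw counts, that is whole reads for each gene in each cell (HTSeq 0.6.1). RPRT is a signal the authors scaled by depth and by the transcript length that reverse transcription reached. Allelic ratios were not used here. The reads carried no molecular identifiers, so intervals and floors cover counting error only, and strand was not given for the counting, so that overlapping genes cannot be told apart.

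Class and embryo came from the study's list of cells. Counts were summed per embryo and class, and 15 sums (7 ICM, 3 TE, 3 PrE and 2 Epi) were fitted together in edgeR 4.0.16 (R 4.3.3; filterByExpr by class, TMM, quasi-likelihood F test, contrast ICM over TE, Benjamini-Hochberg over 12599 genes). SE is the log2 fold change divided by the root of F. Autosomal results are printed. Alternatives used DESeq2 1.42.0, limma 3.58.1, other scalings, filters, cells and samples, and left out each sum. The pipeline was also run on simulated counts with known changes. These were drawn independently for each sum, without a tie between sums of 1 embryo, and no result here rests on that run. No pair of cells had identical counts. The p-values and the SE measure the spread between sums, taken over all classes including those of E4.0. Each TE sum and the ICM sums of embryos 4, 11 and 13 hold 1 cell. Spread between embryos can therefore not be told apart from that between cells or from amplification. Embryo 4 gave an ICM and a TE sum and embryo 14 a PrE and an Epi sum, and the edgeR fit took them as independent.

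Named genes were the 5 markers, the 12 largest called changes in each direction without overlap (gene models and pseudogenes left out) and up to 4 members of each of 20 lists with the lowest p. Further called members and the cell type markers were added. Members and lists were chosen with earlier results of these data known. Gene positions came from RefSeq (GRCm38.p6, the build of mm10). Some genes that this rule names are not reported here.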

Additional observations from a re-analysis of the deposited data

Results flagged for a closer look

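Within the 7 ICM sums, 92 named genes were searched for a sum far from the others on log2(CPM + 1), by the gap to the nearest sum as a share of the range. About 1 in 20 such groups is picked by chance alone. The sum of embryo 11 was far below the others in Eomes (share 0.793), Elf3 (0.67), Mvd (0.601), Tagln2 (0.771) and Jam2 (0.807). It holds 1 cell, and this cell had no count of Cdx2, Gata3 or Gata4 and the highest ICM level of Nanog (904 CPM), Etv5 (547 CPM) and Esrrb (351 CPM). The sum of embryo 13, also 1 cell, was far below the others in Esrrb (0.609), Bmp4 (0.725) and Fn1 (0.618), and had the highest Sparc (4127 CPM) and Gata4 (259 CPM). The sum of embryo 10 was low in Arpc4 (0.576) and Myl12b (0.612), and that of embryo 12 high in F11r (0.628).

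In genes at or near 0 in the other ICM sums, a single sum stood above them. These were Ppl (share 1), Rin3 (0.959) and Fosl2 (0.77) in embryo 12, Epn3 (1) in embryo 10, Epha10 (0.877) in embryo 8 and Kank1 (0.963) in embryo 4.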

How the results depend on the processing

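None of the 83 named genes called changed direction in an alternative in which it could be fitted. The counts of called genes moved with the test, the scaling and the cells. Against 254 higher and 257 lower in the ICM, DESeq2 called 1299 and 1314 (of the 83 named genes called, 79 had an adjusted p there and all 79 were called). Scaling with DESeq2 size factors in edgeR gave 247 and 1427, and library size alone gave 276 and 73. Without a filter on low counts there were 317 and 439, with the E3.5 sums alone 68 and 105, with the first cell of each ICM embryo 72 and 108, and with cells of the earlier study alone 0 and 8. Leaving out 1 sum gave 97 to 443 higher and 56 to 627 lower. The lowest counts were without the TE cell of embryo 5, with 97 and 56, and the next lowest without the ICM sum of embryo 10, with 102 and 84. They were 443 and 444 without the TE cell of embryo 4 and 313 and 627 without that of embryo 2. Limma-voom called 236 and 176 genes without a block and 241 and 173 with embryo as a random replicate block (correlation 0.187), which pairs the cells of embryo 4. Of the 83 named genes, 59 stayed called in either of these fits. Without cells of low mapping, 80 of 83 stayed called, and with the E3.5 sums alone 43 of the 78 that could be fitted. An omission that leaves 2 TE cells takes their spread from all classes. With 3 TE cells, a difference that misses the threshold may still be large, and single cells lose rare RNAs, so an absence from TE cells at this depth is a limit on those cells alone.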
